A study of Homo sapiens with 12 samples.

Results

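The BCL2 family genes described here are 10 regulators of mitochondrial cell death: BCL2, BCL2L1 (which encodes BCL-XL) and MCL1, which oppose death, BAX and BAK1, which carry it out, and BID, BAD, BBC3 (PUMA), PMAIP1 (NOXA) and BCL2L11 (BIM), which start it. The members were the array probes, other than control probes, whose annotated RefSeq transcript belongs to 1 of these genes, and no measured value was used to choose them. All 10 genes were found, of 20092 genes named on the array, with 15 of its 34127 probes, and all 15 were among the 31484 probes kept after the filter on dim signals. BCL2, BAX and BID had 2 probes each and BCL2L11 had 3, and the probe with the highest mean signal is called the lead probe of its gene.

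The proteins of this family meet at the outer membrane of the mitochondrion. BAX and BAK1 form pores there that release cytochrome c and start the caspases, BCL2, BCL-XL and MCL1 hold them back, and the BH3-only proteins neutralize the protectors or activate the pore formers directly. PIM kinases are known to phosphorylate BAD, which 14-3-3 proteins then hold away from BCL-XL, and prostate cancer cells can depend on BCL-XL or MCL1 for survival.

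The cells were PC-3, an established androgen-independent prostate cancer line, grown as G418-selected pools that stably carried a pcDNA3.1 vector, either empty (control) or with PIM1, and in every group also a td-Tomato plasmid as a fluorescent marker. Part of each pool was then transiently transfected with wild-type NFATC1 (WT), a calcium-regulated transcription factor, or with its multi mutant (MM), in which the serines and threonines that PIM1 phosphorylates were replaced by alanines. This gave 6 groups of 2 samples, called control, WT and MM without stable PIM1, and PIM1, PIM1 + WT and PIM1 + MM with it. The labels name no transient transfection for the control and PIM1 groups. WT against control and PIM1 + MM against PIM1 therefore cannot tell the NFATC1 form apart from the transfection itself. The 12 samples were hybridized in pairs to 6 two-colour Agilent arrays on 2 slides, with control, WT and PIM1 + WT in Cy3 and PIM1, MM and PIM1 + MM in Cy5 and no dye swap. The dye and the group therefore cannot be told apart in the 3 comparisons within arrays (PIM1 against control, WT against MM, PIM1 + WT against PIM1 + MM), whereas comparisons within 1 dye set different arrays against each other. No source states that the 2 samples of a group came from separate cultures or transfections, so the p-values measure the spread between these samples, which may be technical.

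Per channel, 56.9% to 69.0% of spots passed the scanner software's test against background and 0 were saturated. The 2 samples of a group correlated over probes with r of 0.9908 in control, 0.9898 in PIM1 and 0.9954 to 0.9983 in the other groups. The first array, with control replicate 1 and PIM1 replicate 1, was therefore also left out as a whole. Without it 6 member probes passed between PIM1 and control cells, with PMAIP1 no longer past the threshold (0.84, adjusted p = 0.0757), and the values of the 6 others were between -0.79 and 0.91. The single PIM1 probe read 9.95 in control and 10.20 in PIM1 cells (log2, difference 0.25, adjusted p = 0.106 in limma). It was lower in PIM1 + WT (9.93) than in WT cells (10.16), and read 10.29 in PIM1 + MM against 10.13 in MM cells. Whether that probe can read the PIM1 plasmid was not tested. Of 2 NFATC1 probes, A_24_P258846 read 6.87 in control, 6.38 in PIM1, 7.77 in WT and 7.97 in PIM1 + WT cells. It read 11.29 in MM and 11.95 in PIM1 + MM cells. The other, A_23_P300150, read 8.28 in WT and 8.39 in MM, and 7.34 in PIM1 + MM against 7.19 in PIM1 + WT cells (adjusted p = 0.48 and 0.111). Without NFATC1 transfection it read 8.29 in control and 7.44 in PIM1 cells. The groups are named by their labels throughout, and the part of the unequal NFATC1 signals of the first probe in the comparisons of WT with MM was not tested. Of 9 probes for genes known in PC-3 cells (KRT8, KRT18, EPCAM, CDH1, VIM, CD44), 8 were well above background in all 12 channels, and KLK3, which these cells should lack, was in none. Of 14 probes for leukocyte, endothelial and fibroblast markers, 5 were above background in every channel and 5 in none, among the latter COL3A1. The summed linear signal of the 13 that were kept ran from 1660 to 1810 in the groups without stable PIM1 and from 1920 to 2240 in those with it, mainly through PECAM1 (7.57 to 7.73 against 8.61 to 8.80). The part of these markers in the differences between PIM1 and other cells was not tested.

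NFAT proteins bind DNA at a short core, GGAAA, so the bases before the transcription starts of 1 protector (BCL2L1) and of both pore formers (BAK1, BAX) are shown first. They come from RefSeq on GRCh38.p14, the 250 bases that end at the start site, written 5′ to 3′ on the strand of the gene, with GGAAA in capitals where it was found (both strands were searched). BCL2L1 lies on the minus strand of chromosome 20, and RefSeq gives it 2 starts 1095 bases apart, the first at chr20:31723964-31724213 and the second at chr20:31722869-31723118. BAK1 lies on the minus strand at chr6:33580277-33580526 and BAX on the plus strand at chr19:48954625-48954874. The 3 genes were chosen for display after their values were seen.
BCL2L1, first start: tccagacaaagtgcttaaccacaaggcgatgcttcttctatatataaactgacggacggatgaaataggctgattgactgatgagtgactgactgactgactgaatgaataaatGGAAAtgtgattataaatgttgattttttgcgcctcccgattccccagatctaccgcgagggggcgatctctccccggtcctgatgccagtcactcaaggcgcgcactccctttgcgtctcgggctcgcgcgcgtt
BCL2L1, second start: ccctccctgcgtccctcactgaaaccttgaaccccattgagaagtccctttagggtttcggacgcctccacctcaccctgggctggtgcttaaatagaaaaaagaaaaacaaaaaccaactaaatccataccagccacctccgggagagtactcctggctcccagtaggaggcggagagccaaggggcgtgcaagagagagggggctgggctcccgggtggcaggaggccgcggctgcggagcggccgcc
BAK1: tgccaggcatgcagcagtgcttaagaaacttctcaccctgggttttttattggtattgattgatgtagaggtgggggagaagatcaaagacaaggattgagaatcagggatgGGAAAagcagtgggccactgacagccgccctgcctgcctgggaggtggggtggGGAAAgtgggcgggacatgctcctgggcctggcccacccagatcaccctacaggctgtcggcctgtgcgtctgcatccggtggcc
BAX: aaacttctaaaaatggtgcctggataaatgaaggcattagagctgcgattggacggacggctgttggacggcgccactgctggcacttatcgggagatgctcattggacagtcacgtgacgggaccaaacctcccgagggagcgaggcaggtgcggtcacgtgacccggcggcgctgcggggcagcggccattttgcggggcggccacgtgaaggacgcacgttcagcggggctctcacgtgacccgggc

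The first BCL2L1 start had 1 core, 136 bases upstream, the second had 0, BAK1 had 2, at 138 and 85 bases, and BAX had 0. Over the family, 9 of the 10 genes had a sequence (MCL1 had none here), and 10 of their 15 starts, in 7 genes, held at least 1 core. Since 55.6% of all 35116 RefSeq starts held one, the motif is common in any such window and its presence is a description, not a binding site. Which start the array probe reads was not analysed.

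With stable PIM1, members of the family differed in both directions. Between PIM1 and control cells, 7 of the 15 member probes passed the test (adjusted p below 0.05 by limma with Benjamini-Hochberg adjustment over all probes), 4 of them higher and 3 lower, where 26.3% of all probes passed, 13.1% higher and 13.1% lower. BAK1, PMAIP1, MCL1 and BCL2L1 were the higher ones and BAX and both BID probes the lower ones, but this split held for quantile-normalized values: when each channel was centred on its median instead, 4 member probes passed, 0 higher and 4 lower, while 34.4% of all probes passed and their median difference was 0.10. In cells that also carried WT, within Cy3, 11 of the 15 passed between PIM1 + WT and WT, 6 higher and 5 lower (all probes: 27.7%, with 13.2% higher and 14.5% lower; 0 members and 1.97% after median centring, which put the median of all probes at 0.13). In cells with MM, within Cy5, 4 passed between PIM1 + MM and MM, 3 higher and 1 lower (all probes: 19.3%, with 9.81% higher and 9.53% lower; 0 members and 0.416% after median centring). The median over the 15 probes was -0.11, 0.12 and 0.04 in these 3 comparisons, beside medians of 0.01, -0.01 and 0.00 over all probes.

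Without stable PIM1, no member passed between the forms of NFATC1 in the fit without an array block. Between WT and MM cells 0 of the 15 probes passed in limma, with 2 at an unadjusted p below 0.05 (all probes: 1.02% adjusted, 12.2% unadjusted). WT and MM share arrays, and with the array as a fixed or random block 1 passed, BCL2L1 (0.29, adjusted p = 0.0447 and 0.0116; all probes: 2.43% and 5.06%). Between WT and control cells, within Cy3, 0 passed, with 1 at an unadjusted p below 0.05 (0.191% and 10.9%). With stable PIM1, 5 of the 15 passed between PIM1 + WT and PIM1 + MM cells, 2 higher (BCL2L1, BAK1) and 3 lower (BCL2, BAX and 1 BID probe), where 17.1% of all probes passed, 8.84% higher and 8.22% lower. This count fell to 2 or 3 in fits without any 1 of the 4 samples and to 0 after median centring (all probes there: 0.146%), and rose to 9 and 10 with the array as a fixed and random block (all probes: 27% and 28.1%). BCL2L1 alone passed the test of the interaction, that is, whether the difference between WT and MM was itself different with stable PIM1 (1 of 15 probes, higher; all probes: 2.6%, with 1.99% higher). With the array as a random block the lead BID probe passed it as well (-0.33, adjusted p = 0.0294; all probes: 10.1%). Between PIM1 + MM and PIM1 cells, within Cy5, 3 members passed, BAX higher and BCL2L1 and PMAIP1 lower in PIM1 + MM (all probes: 13.5%, with 5.69% higher and 7.82% lower; 0 members and 0.00318% after median centring).

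**Figure D1:**
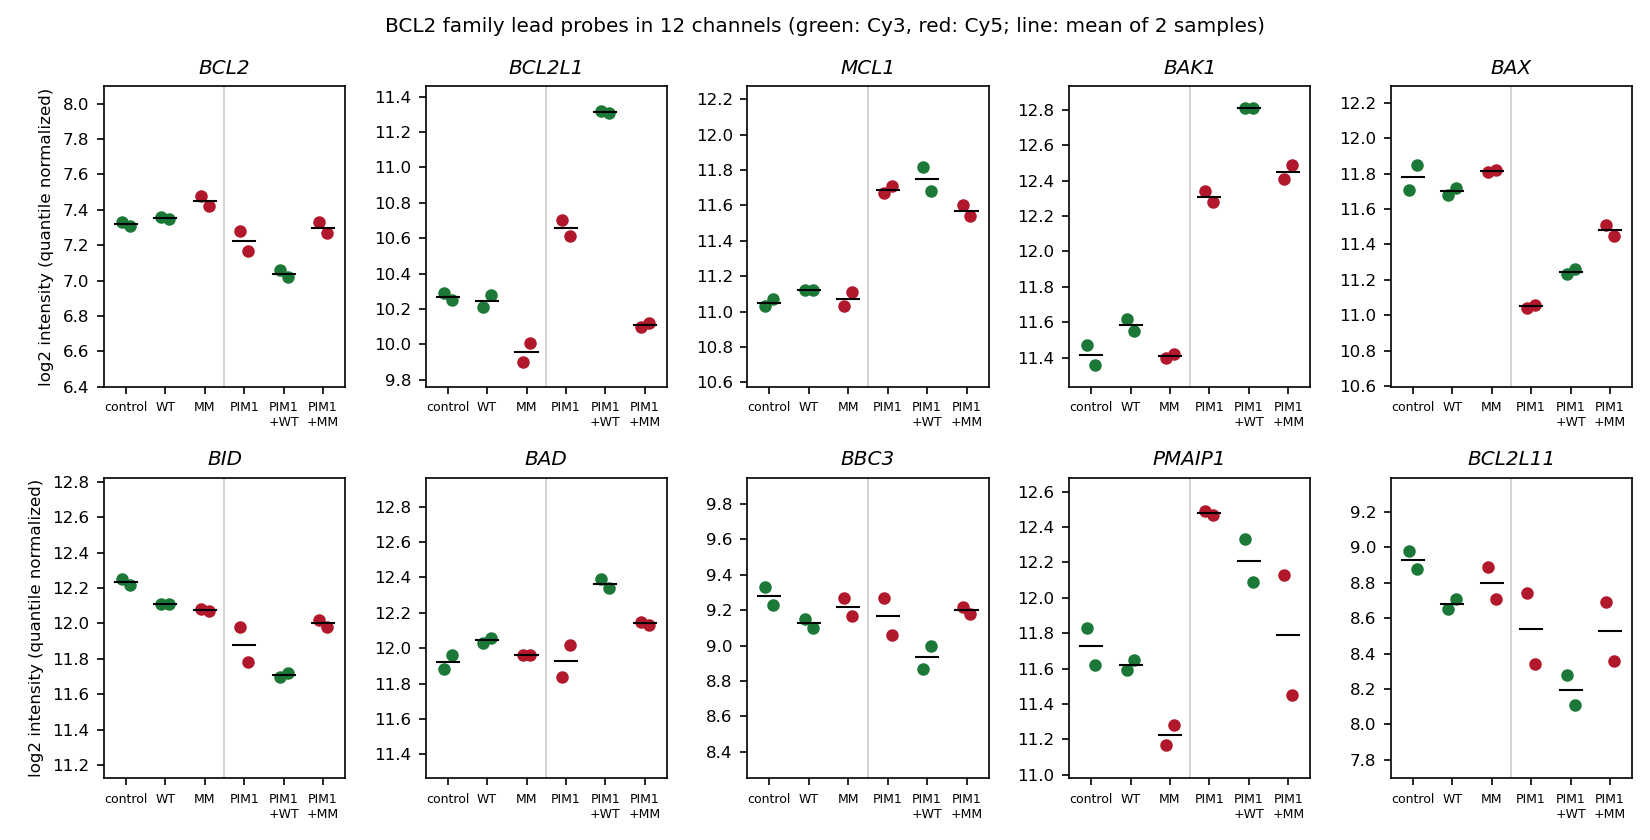
Lead probe of each of the 10 genes: the vertical axes give the quantile-normalized log2 intensity, each panel over the same span, and each dot is 1 sample (green Cy3, red Cy5; the line is the mean of 2). To the right of the grey line, in cells with stable PIM1, BAK1 (12.28 to 12.81) and MCL1 lie above and BAX and BID below all samples without it, and BCL2L1 stands highest in PIM1 + WT cells (11.31 and 11.32).

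Among the protectors, BCL2L1 changed most. Its probe (A_23_P210886) read 10.25 and 10.29 in control, 10.21 and 10.28 in WT, 9.90 and 10.01 in MM, 10.61 and 10.70 in PIM1, 11.31 and 11.32 in PIM1 + WT and 10.10 and 10.12 in PIM1 + MM cells. PIM1 + WT stood highest and PIM1 next, each clear of the other groups. Control and WT overlapped, and MM was lowest, 0.09 below the nearest PIM1 + MM sample.

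PIM1 + WT cells had 2.31-fold the BCL2L1 of PIM1 + MM cells (log2 difference 1.21, SE 0.0635, adjusted p = 3.09e-05). Without stable PIM1 the same difference was 0.29 (95% interval 0.15 to 0.43) and did not pass (adjusted p = 0.0785). The interaction was 0.92 (SE 0.0898, adjusted p = 0.00397), with 0.91 in the first pair of arrays and 0.92 in the second. Both differences have the same dye order, so a shift that the dye gives to both cancels in the interaction. Median centring left these values at 1.51 (adjusted p = 0.051) and 0.80 (adjusted p = 0.998), in the same direction but not past the threshold. BCL2L1 is among the genes that the study itself listed from these arrays, so the result is not independent of that choice.

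Read the other way, stable PIM1 went with 1.07 more BCL2L1 beside WT (2.10-fold, within Cy3, adjusted p = 7.67e-06) and with 0.15 more beside MM (within Cy5, adjusted p = 0.129). The same 4 groups make the interaction, so this is not a second test of it. Between PIM1 and control cells BCL2L1 was 0.39 higher (adjusted p = 0.00176), a direction that median centring turned to -0.21 (adjusted p = 0.506). MM in PIM1 cells went with 0.55 less BCL2L1 than PIM1 alone (within Cy5, adjusted p = 0.00169), and WT alone differed from control by -0.03. The labels name a transient transfection for PIM1 + MM and WT, but not for PIM1 and control cells.

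The BCL2L1 probe is printed 10 times on the array, which gives a look at the error within an array. All 10 spots had more signal for PIM1 + WT than for PIM1 + MM in both arrays, by 0.97 to 1.34 in the first and 1.07 to 1.43 in the second. In the WT against MM arrays all 10 were also higher in both, by 0.11 to 0.38 and 0.11 to 0.41. These spots share 1 RNA sample per channel and are not replicates of the condition.

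**Figure D2:**
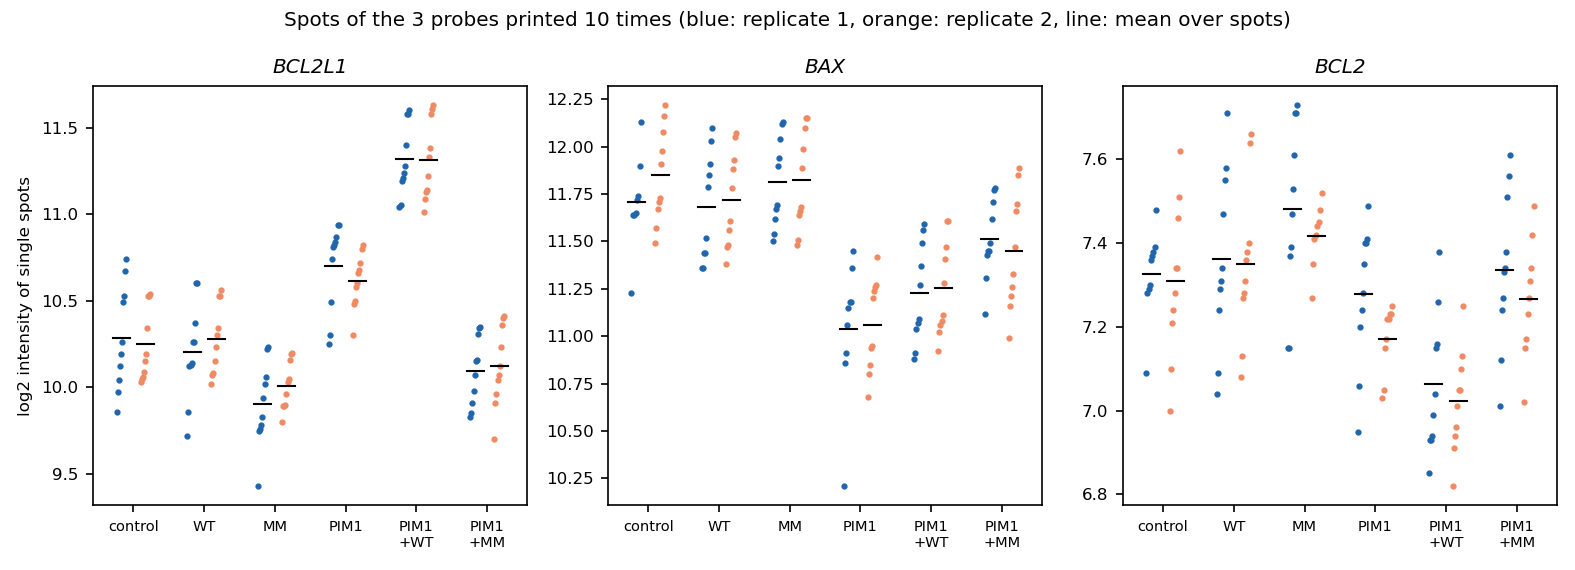
Single spots of the 3 member probes printed 10 times, BCL2L1, BAX and BCL2 (vertical axis: normalized log2 intensity; each dot is 1 spot without an outlier flag, blue replicate 1, orange replicate 2, line the mean over spots). Spots of 1 sample spread widely, with SDs of 0.142 to 0.304 for BCL2L1, and still the PIM1 + WT spots of BCL2L1, none below 11.01, lie above every other spot of that probe.

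MCL1, a short-lived protector, differed with stable PIM1 in all 3 backgrounds in the quantile-normalized values. It read 11.03 and 11.07 in control, 11.12 and 11.12 in WT, 11.03 and 11.11 in MM, 11.67 and 11.71 in PIM1, 11.68 and 11.82 in PIM1 + WT and 11.54 and 11.60 in PIM1 + MM cells. The 6 samples with stable PIM1 all lay above the 6 without it, by at least 0.41. MCL1 rose by 0.63 within Cy3 (PIM1 + WT against WT, adjusted p = 0.000139) and by 0.50 within Cy5 (PIM1 + MM against MM, adjusted p = 0.000904). Neither call passed after median centring (adjusted p = 0.439 and 0.988). MCL1 was 0.64 higher in PIM1 than in control cells (adjusted p = 0.000143), a direction that median centring turned to -0.05 (adjusted p = 0.881). The difference between PIM1 + WT and PIM1 + MM was 0.18 (95% interval 0.03 to 0.33, adjusted p = 0.0946).

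BCL2 itself was dim, and 2 of its 8 comparisons passed. Its lead probe (A_23_P352266) read 7.31 and 7.33 in control, 7.35 and 7.36 in WT, 7.42 and 7.48 in MM, 7.17 and 7.28 in PIM1, 7.02 and 7.06 in PIM1 + WT and 7.27 and 7.33 in PIM1 + MM cells. PIM1 + WT was lowest and MM highest, and control, PIM1 and PIM1 + MM overlapped in a chain. It fell by 0.31 between WT and PIM1 + WT cells (within Cy3, adjusted p = 0.00452) and differed by -0.26 between PIM1 + WT and PIM1 + MM (adjusted p = 0.0202), the latter not past the threshold in 3 of the 4 fits that left out 1 sample (adjusted p 0.0432 to 0.127). All 10 spots of the first PIM1 + WT array and all 9 usable spots of the second were lower than in PIM1 + MM. The second BCL2 probe, annotated to another transcript, passed in 0 of the 8 comparisons in limma, and at an unadjusted p below 0.05 in 0 as well.

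Of the 2 pore formers, BAK1 was higher and the lead probe of BAX, but not its second probe in every background, lower with stable PIM1. BAK1 read 11.36 and 11.47 in control, 11.55 and 11.62 in WT, 11.40 and 11.42 in MM, 12.28 and 12.34 in PIM1, 12.81 and 12.81 in PIM1 + WT and 12.41 and 12.49 in PIM1 + MM cells. The lowest sample with stable PIM1 was 0.66 above the highest without it, and PIM1 + WT was 0.32 above the next group.

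BAK1 was 1.86-fold higher in PIM1 than in control cells (log2 difference 0.89, SE 0.0637, adjusted p = 2.2e-05), 2.33-fold higher in PIM1 + WT than in WT cells (1.22, adjusted p = 4.44e-06) and 2.06-fold higher in PIM1 + MM than in MM cells (1.04, adjusted p = 1.39e-05). These 3 comparisons share no sample, but the last 2 share arrays and all 3 set PIM1 pools against control pools. PIM1 and any other difference between the pools cannot be told apart in them. After median centring they stood at 0.19, 0.92 and 0.94 with adjusted p of 0.576, 0.125 and 0.368. In RNA from a whole culture, a change per cell and a change in the share of cells that carry a transcript cannot be told apart. BAK1 also differed by 0.36 between PIM1 + WT and PIM1 + MM (adjusted p = 0.0052), while WT and MM differed by 0.17 (adjusted p = 0.282) and the interaction was 0.18 (95% interval -0.02 to 0.39, adjusted p = 0.359).

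**Figure D3:**
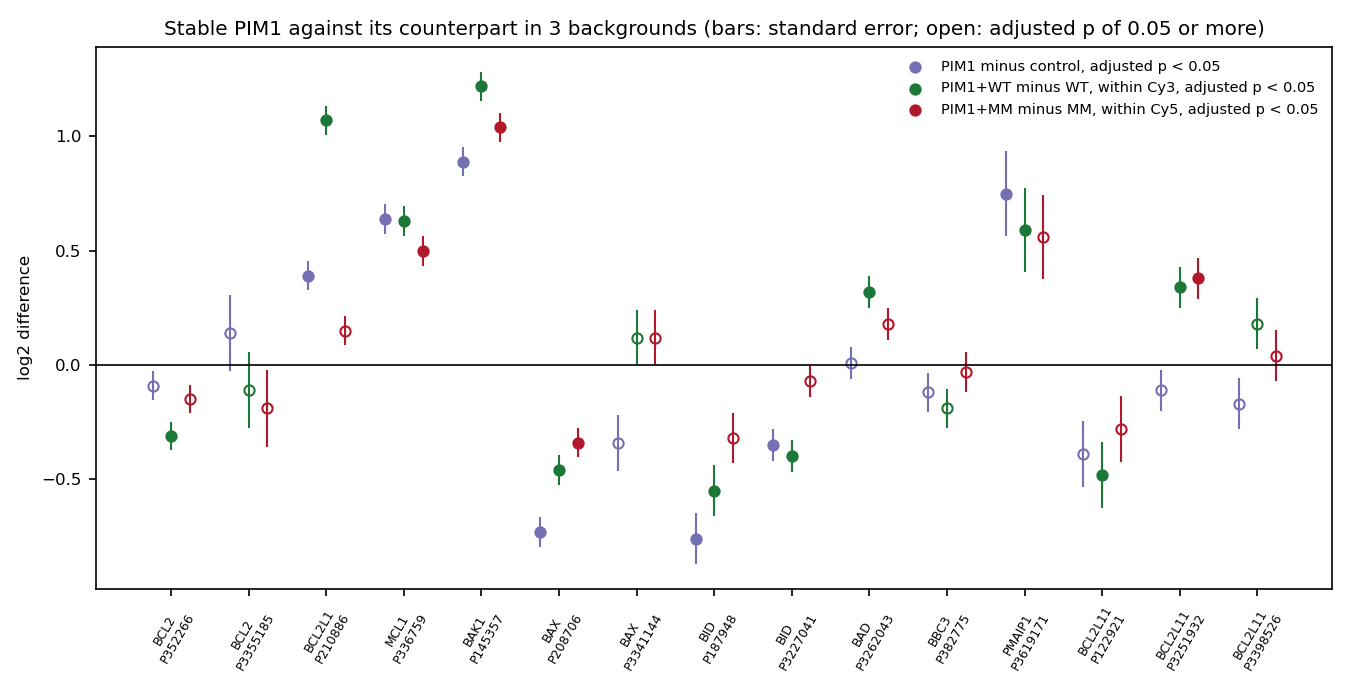
Log2 difference between cells with stable PIM1 and their counterpart for each of the 15 probes, in 3 backgrounds (bars: standard error; filled: adjusted p below 0.05). BAK1 (0.89, 1.22, 1.04) and MCL1 (0.64, 0.63, 0.50) were higher and the BAX lead probe lower in all 3, and BCL2L1 spread widest between backgrounds (0.39, 1.07, 0.15). Median centring turned the first values of MCL1 and BCL2L1 to -0.05 and -0.21, and after it no member passed beside WT or MM.

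The BAX lead probe (A_23_P208706) read 11.71 and 11.85 in control, 11.68 and 11.72 in WT, 11.81 and 11.82 in MM, 11.04 and 11.06 in PIM1, 11.23 and 11.26 in PIM1 + WT and 11.45 and 11.51 in PIM1 + MM cells. All 6 samples with stable PIM1 lay below the 6 without it, and control, WT and MM followed each other without a gap. The 3 groups with stable PIM1 were apart from each other, PIM1 lowest and PIM1 + MM highest.

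BAX fell by 0.73 between control and PIM1 cells (SE 0.0645, adjusted p = 6.35e-05), a difference that was -1.41 after median centring (adjusted p = 0.0159). It was 0.46 lower in PIM1 + WT than in WT cells (adjusted p = 0.000702) and 0.34 lower in PIM1 + MM than in MM cells (adjusted p = 0.00636). Each of these calls was lost in 4 of 14 alternative processings, median centring among them (adjusted p up to 0.192 and 0.965). PIM1 + MM cells had 0.43 more BAX than PIM1 cells (adjusted p = 0.00399). The difference of -0.24 between PIM1 + WT and PIM1 + MM (adjusted p = 0.0322) was lost in every fit without 1 of the 4 samples (adjusted p 0.0735 to 0.168), and median centring turned it to 0.07.

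For BAX the calls depended on the spots and on the probe. Of its 10 spots, 2 in control replicate 1 and 1 in PIM1 replicate 1 were flagged as outliers by the scanner software and left out. With them kept, BAX between PIM1 and control cells still passed, but the differences of -0.46 and -0.34 in the WT and MM backgrounds did not (adjusted p = 0.154 and 0.32), nor did PIM1 + WT against PIM1 + MM (adjusted p = 0.517) or PIM1 + MM against PIM1 (0.68, adjusted p = 0.0636). In the usable spots, 0 of 8 and 0 of 10 had more signal in PIM1 cells. The second BAX probe, annotated to another transcript, passed in 0 of the 8 comparisons: its differences were -0.34 (adjusted p = 0.0724), 0.12 and 0.12 in the 3 backgrounds, and 2 of the 8 had an unadjusted p below 0.05. The 2 BAX probes thus disagree, and which transcripts each reads in these cells was not tested.

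Among the starters of cell death, BID was lower with stable PIM1. BID is cut by caspase 8 and then engages the pore formers. Its lead probe (A_33_P3227041) read 12.22 and 12.25 in control, 12.11 and 12.11 in WT, 12.07 and 12.08 in MM, 11.78 and 11.98 in PIM1, 11.70 and 11.72 in PIM1 + WT and 11.98 and 12.02 in PIM1 + MM cells. The 6 samples with stable PIM1 were all below the others, although PIM1 + MM came within 0.05 of MM.

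Both BID probes, which share 1 annotated transcript, fell between control and PIM1 cells, by 0.35 (adjusted p = 0.00468) and by 0.76 (adjusted p = 0.00094), and after median centring these were -1.08 and -1.43 and still passed. They were lower in PIM1 + WT than in WT cells by 0.40 and 0.55 (adjusted p = 0.00216 and 0.0054). Neither of these calls passed after median centring (adjusted p = 0.256 and 0.127). Between PIM1 + MM and MM cells the differences of -0.07 and -0.32 did not pass (adjusted p = 0.538 and 0.0759). Between PIM1 + WT and PIM1 + MM the lead probe differed by -0.29 (adjusted p = 0.0199), a call lost without any 1 of the 4 samples (adjusted p 0.0606 to 0.11) and at 0.00 after median centring.

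Taking all 12 samples, 5 of the 15 member probes did not overlap between the 6 with stable PIM1 and the 6 others: BAK1 and MCL1 higher, the BAX lead probe and both BID probes lower. Of the 31235 probes measured in every channel 14.8% did so, 6.58% higher and 8.19% lower. Many other genes on the array behaved the same way, and nothing particular to the family is read from this count.

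PMAIP1, a BH3-only protein that binds MCL1, passed in 2 of the 3 comparisons of cells with and without stable PIM1, and was noisy. It read 11.62 and 11.83 in control, 11.59 and 11.65 in WT, 11.17 and 11.28 in MM, 12.47 and 12.49 in PIM1, 12.09 and 12.33 in PIM1 + WT and 11.45 and 12.13 in PIM1 + MM cells. The spread of 0.484 (SD, n = 2) in PIM1 + MM was the widest of any lead probe and group. The only spot of PMAIP1 lies in the first 33 rows of the array. There PIM1 + MM replicate 2 was dim in Cy5 (median difference of -0.27 from its other rows, against differences of -0.14 to 0.04 in the other channels).

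PMAIP1 was 0.75 higher in PIM1 than in control cells (SE 0.185, adjusted p = 0.015) and 0.59 higher in PIM1 + WT than in WT cells (adjusted p = 0.0408). Between PIM1 + MM and MM cells the difference of 0.56 did not pass (adjusted p = 0.0636), with 0.96 in the first pair of samples and 0.17 in the second. The first value was 0.03 after median centring, and its call was lost without control replicate 2 (0.64, adjusted p = 0.0909), PIM1 replicate 1 (0.74, adjusted p = 0.0556) or PIM1 replicate 2 (0.76, adjusted p = 0.0556). The second was lost without any 1 of its 4 samples (0.47 to 0.71, adjusted p 0.067 to 0.222). PMAIP1 was 0.69 lower in PIM1 + MM than in PIM1 cells (adjusted p = 0.04), a difference of -0.34 (adjusted p = 0.1) when those rows were left out of PIM1 + MM replicate 2. That difference was -1.03 without PIM1 + MM replicate 1 (adjusted p = 0.00205), -0.34 without PIM1 + MM replicate 2 (adjusted p = 0.139), and not past the threshold without either PIM1 sample (adjusted p = 0.116 and 0.093).

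BAD, the PIM substrate of the family, passed in 1 of 8 comparisons. It read 11.88 and 11.96 in control, 12.03 and 12.06 in WT, 11.96 and 11.96 in MM, 11.84 and 12.02 in PIM1, 12.34 and 12.39 in PIM1 + WT and 12.13 and 12.15 in PIM1 + MM cells. PIM1 + WT was highest, clear of the rest, and PIM1 and control overlapped. BAD was 0.32 higher in PIM1 + WT than in WT cells (within Cy3, adjusted p = 0.00733; 0.01 after median centring), a call lost without WT replicate 1 (0.31, adjusted p = 0.0561) or PIM1 + WT replicate 1 (0.30, adjusted p = 0.057). The difference of 0.23 between PIM1 + WT and PIM1 + MM did not pass (adjusted p = 0.0558), and PIM1 and control differed by 0.01 (95% interval -0.15 to 0.17). RNA levels say nothing about phosphorylation of BAD.

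BBC3, a p53 target whose protein binds all the protectors, passed in 0 of the 8 comparisons in limma (1 at an unadjusted p below 0.05). It read 9.23 and 9.33 in control, 9.10 and 9.15 in WT, 9.17 and 9.27 in MM, 9.06 and 9.27 in PIM1, 8.87 and 9.0 in PIM1 + WT and 9.18 and 9.22 in PIM1 + MM cells. PIM1 + WT was lowest, 0.10 below the nearest WT sample, and the other 5 groups overlapped in a chain. The largest of its differences in size was -0.26, between PIM1 + WT and PIM1 + MM cells (95% interval -0.45 to -0.06, adjusted p = 0.0718).

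BCL2L11, a BH3-only protein induced by FOXO factors when survival signals fall, gave opposite readings from its probes. The lead probe (A_24_P122921) read 8.88 and 8.98 in control, 8.65 and 8.71 in WT, 8.71 and 8.89 in MM, 8.34 and 8.74 in PIM1, 8.11 and 8.28 in PIM1 + WT and 8.36 and 8.69 in PIM1 + MM cells. PIM1 + WT was lowest and the remaining groups overlapped in a chain. It was 0.48 lower in PIM1 + WT than in WT cells (adjusted p = 0.0339), whereas the probe A_33_P3251932 was 0.34 higher in the same comparison (adjusted p = 0.0193) and 0.38 higher in PIM1 + MM than in MM cells (adjusted p = 0.0166). The first of these calls was lost without any 1 of its 4 samples (adjusted p 0.0704 to 0.18), the second without 3 of the 4 (0.0383 to 0.137) and the third without any of the 4 (0.057 to 0.0778). The third BCL2L11 probe passed in 0 of the 8 comparisons, with 0 at an unadjusted p below 0.05.

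**Figure D4:**
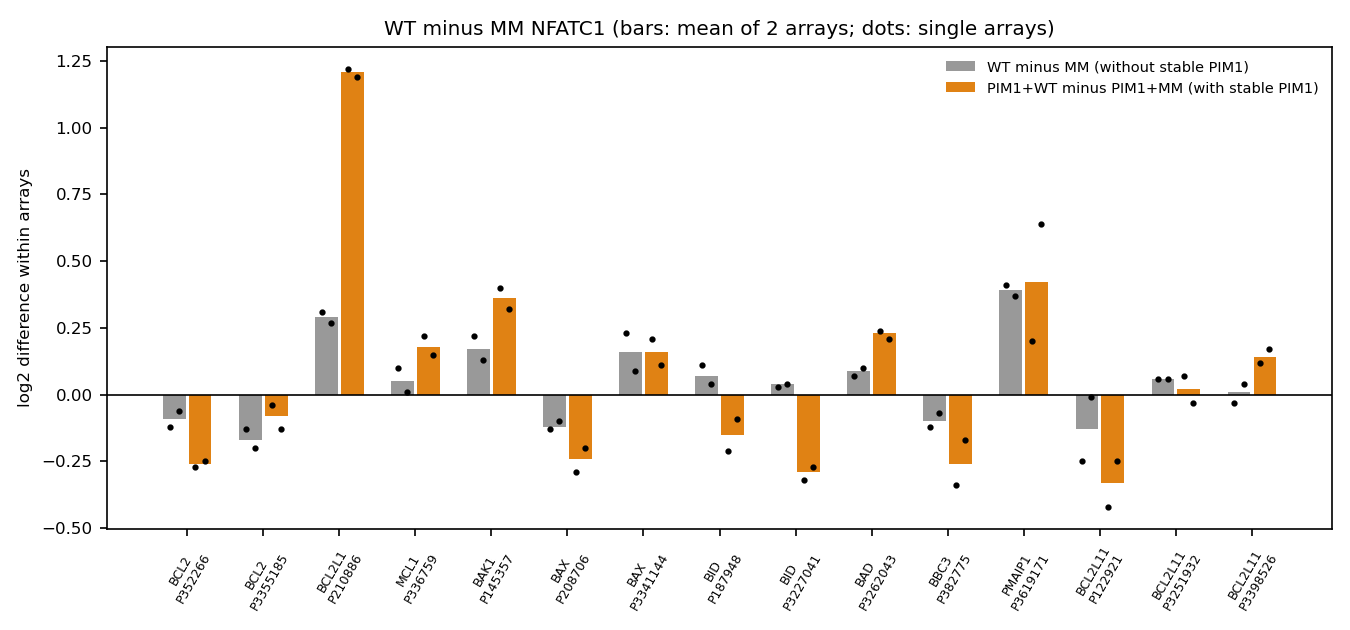
Log2 difference between WT and MM NFATC1 within arrays for the 15 member probes, without stable PIM1 (grey) and with it (orange); bars are means of 2 arrays, dots single arrays. BCL2L1 reaches 1.21 with stable PIM1 against 0.29 without it, and the other probes stay between -0.33 and 0.42. In every bar Cy3 stands against Cy5, and after median centring the BAX lead probe is at 0.07 and not -0.24.

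The members' patterns over the 12 samples can be set side by side, as a description only, since samples share arrays, dyes and stable pools. BAK1 and MCL1 ran most closely together (Pearson r = 0.96), BAX ran against MCL1 (r = -0.92), and BCL2 against BCL2L1 (r = -0.94). BCL2L1 followed BAK1 less tightly (r = 0.73), and BAD and PMAIP1 were nearly unrelated (r = 0.26). Outside the family, among probes well above background in all 12 channels, the genes most like BCL2L1 were TECR, SLC25A6 and TSC22D4 (r from 0.989 to 0.993), and those most like BAK1 were NLE1, SLC44A2 and PC (0.988 to 0.995). HYAL3, PRKCD and SMOX were most like MCL1 (0.987 to 0.989), and HGS, YY1AP1 and SMARCD3 most like BAX (0.977 to 0.978).

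The other relatives of BCL2 passed in both directions. The 5 lists that follow hold 62 genes, and all genes named from them other than HRK were chosen after their values were seen. Their counts are read against the all-probe shares of 13.1% higher and 13.1% lower between PIM1 and control, 13.2% and 14.5% between PIM1 + WT and WT, and 9.81% and 9.53% between PIM1 + MM and MM, and nothing particular to a list is drawn from them. After median centring, 20 of the 34 list probes that had passed between PIM1 and control still passed, 2 of 33 between PIM1 + WT and WT, 0 of 15 between PIM1 + MM and MM, 0 of 26 between PIM1 + WT and PIM1 + MM and 0 of 4 in the interaction. Of 14 further family genes, 13 had a probe that was kept (20 probes). Between PIM1 and control cells 3 of these probes were higher and 4 lower, between PIM1 + WT and WT cells 3 and 4, and between PIM1 + MM and MM cells 1 and 3, with medians of 0.00, 0.02 and 0.04. HRK, a BH3-only protein that binds BCL2 and BCL-XL, was lower in all 3, by 1.07 (SE 0.0931, adjusted p = 5.87e-05), 0.91 (adjusted p = 0.000118) and 0.59 (adjusted p = 0.00233), from a mean of 8.85 in control to 7.79 in PIM1 cells. Median centring kept its direction (-1.31, -1.12 and -0.65), the last no longer past the threshold (adjusted p = 0.48). BIK, a BH3-only protein of the endoplasmic reticulum, was higher in the same 3 comparisons (0.33, 0.26 and 0.65; after median centring 0.06, 0.17 and 0.53, none passed). BOK, a relative of BAX and BAK1, differed by 0.66 between PIM1 + WT and PIM1 + MM (adjusted p = 0.000107), with an interaction of 0.42 (adjusted p = 0.0274), and both calls were lost after median centring (0.97 and 0.31, adjusted p = 0.107 and 0.998). BCL2L2 (BCL-W) was 0.66 higher in PIM1 than in control cells, a direction that median centring turned to -0.24. Its value was missing for a control and a PIM1 sample. That difference therefore rests on 1 sample per group (SE 0.114, against 0.0805 between WT and MM).

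Of 24 probes for 17 genes that act downstream of the mitochondria, 1 was higher and 8 lower between PIM1 and control cells, 0 and 9 between PIM1 + WT and WT, and 0 and 2 between PIM1 + MM and MM, with medians of -0.11, -0.22 and -0.14. The 9 and the 2 calls of the last comparisons were all lost after median centring. BIRC5 (survivin), an inhibitor of apoptosis that is also needed for cell division, was lower in all 3, by 0.76, 0.60 and 0.28 (adjusted p = 5.25e-05, 0.000168 and 0.0154), of which the first still passed after median centring and the others did not (-0.86 and -0.38, adjusted p = 0.182 and 0.988). DIABLO, which relieves the caspases of their inhibitors, was lower in PIM1 than in control cells at both of its probes (-0.50 and -0.74). CASP9, the initiator caspase of this route, was 0.42 higher, a direction that median centring turned to -0.13.

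Of 26 probes for 16 upstream regulators of the family, 3 were higher and 7 lower between PIM1 and control cells and again between PIM1 + WT and WT cells, and 3 and 3 between PIM1 + MM and MM cells. DDIT3 (CHOP), a stress factor known to act on BCL2 and BIM, was higher by 0.47 and 0.54 beside WT and MM (adjusted p = 0.00292 and 0.00243; after median centring 0.27 and 0.39, adjusted p = 0.518 and 0.988). MYC was lower by 0.35 and 0.29 between PIM1 and control and between PIM1 + WT and WT cells, the second call lost after median centring (-0.59, adjusted p = 0.307). Of 9 probes for the 7 14-3-3 proteins, 4 were higher and 2 lower between PIM1 and control cells, and median centring turned the sign of 3 of these 6. Between PIM1 + WT and WT cells 1 was higher and 3 lower, and between PIM1 + MM and MM cells 0 and 2. YWHAB was lower in all 3 backgrounds (-0.27, -0.60 and -0.49), of which the first passed after median centring. YWHAE differed by 0.88 between PIM1 + WT and PIM1 + MM (adjusted p = 0.000949; 1.15 and adjusted p = 0.104 after median centring). Of 15 probes for death receptors and their partners, 1 was higher and 1 lower between PIM1 and control cells, both of CASP10 and both turned by median centring. Between PIM1 + WT and WT cells 2 were higher and 1 lower, and between PIM1 + MM and MM cells 1 and 0. Median centring turned the sign of 9 of the 34 probes of these 5 lists that had passed between PIM1 and control cells.

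**Figure D5:**
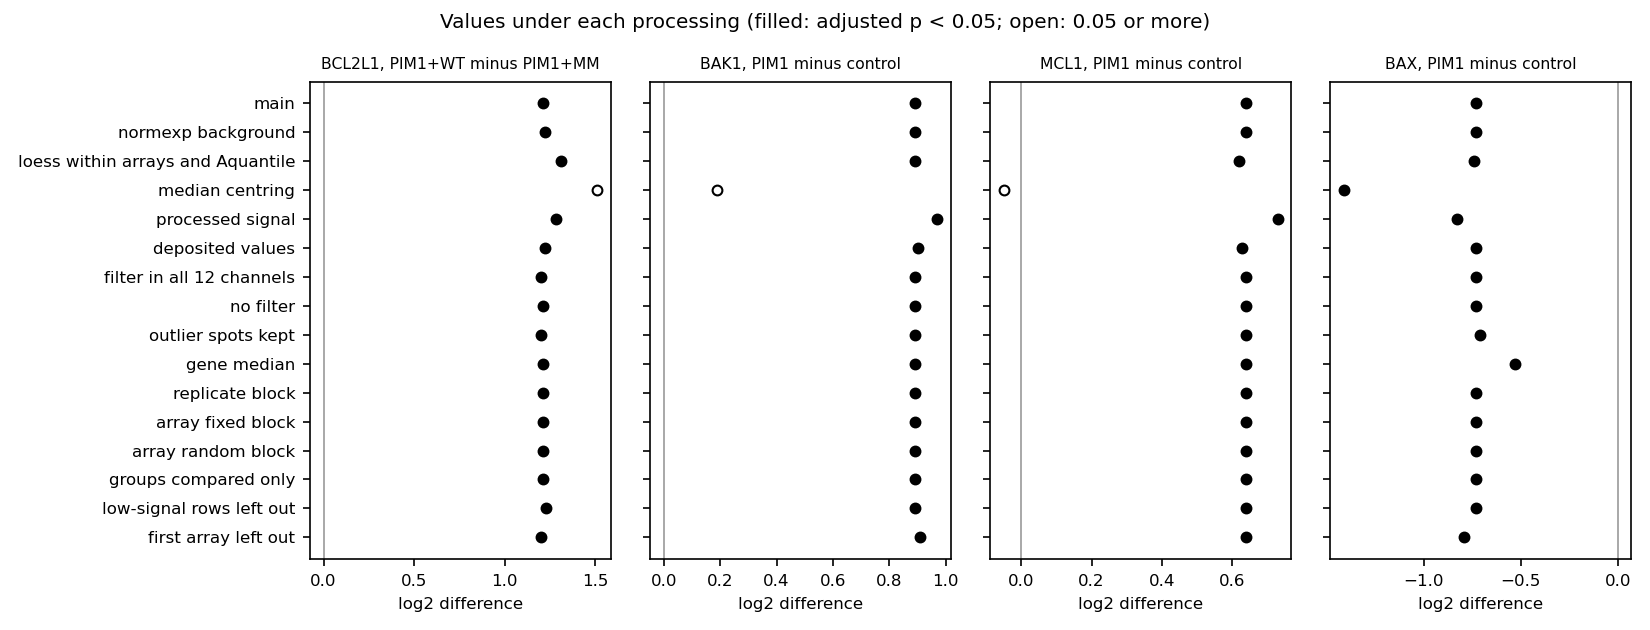
4 member results under the main processing and 15 alternatives (horizontal axis: log2 difference; filled: adjusted p below 0.05). The values stay close together except under median centring, where BCL2L1 in PIM1 + WT against PIM1 + MM cells is 1.51, BAX in PIM1 against control cells -1.41, BAK1 0.19 and MCL1 -0.05; the gene median, which joins both BAX probes, gives -0.53 for BAX.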

How the data were processed

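RNA of 12 PC-3 cell samples was measured on 6 two-colour Agilent arrays. The authors deposited, for each spot, the intensity (median signal on the linear scale of the scanner, with background and flags) from Feature Extraction 11.0.1.1, and a table of log2 values, quantile normalized. The submitters' processing notes name limma.

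Here spots flagged as outliers were left out, log2 of the intensity was taken with no background subtracted, and a mean was taken over the spots of each probe. A probe was kept if, in 2 or more channels, it exceeded the 90th percentile of that channel's 153 negative controls. The log2 values of the probes kept were then quantile normalized over the 12 channels. All 12 samples entered 1 fit in limma 3.58.1 (R 4.3.3) with a mean for each group, with Benjamini-Hochberg adjustment over the 31484 probes of each of 8 comparisons. All tests were two-sided. Genes were named through RefSeq transcripts (26377 of 34127 probes matched). The number of arrays limits the precision.

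All probes of the 10 members are named, with every sample's value for the lead probe, and for each lead probe the 3 most alike probes of other genes could be named. A gene of the 5 pathway lists was to be named where a probe passed with a log2 difference of at least 1 in size. The members and lists were chosen with earlier results of these data known. The labels number no replicates: replicates 1 and 2 are in accession order, which here is also the order of the slides. The alternatives were other background corrections, scalings and filters, outlier spots kept, the gene median, blocks for replicate and array, fewer samples in the fit and each sample left out. A fit with 1 sample left in a group assumes that it varies like the other groups. Some genes of the lists are not reported here.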

Additional observations from a re-analysis of the deposited data

Results flagged for a closer look

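For BCL2L1 the difference between WT and MM NFATC1 was larger with stable PIM1 than without it, by 0.92 on the log2 scale (limma, adjusted p = 0.00397), a difference between the 2 backgrounds that was tested as an interaction.

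Both BID probes differed in sign between the 2 backgrounds: WT was above MM in both arrays without stable PIM1, and PIM1 + WT below PIM1 + MM in both arrays with it. The difference of these differences was -0.22 for A_24_P187948 and -0.33 for A_33_P3227041. As interactions neither passed in limma (adjusted p = 0.556 and 0.121), while the second did with the array as a random block (adjusted p = 0.0294).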

How the results depend on the processing

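Of the recomputed values of the 31 member results that had passed, 479 of 571 kept their direction and passed, 89 no longer passed and 3 changed sign, all 3 under median centring: BCL2L1 and MCL1 between PIM1 and control cells (-0.21 and -0.05) and BAX between PIM1 + WT and PIM1 + MM cells (0.07). Median centring accounted for 25 of the 89. Counts of member probes that passed moved as follows. Under median centring they were 4 between PIM1 and control, and 0 between PIM1 + WT and PIM1 + MM, in the interaction, and in the 3 comparisons of PIM1 + WT with WT and of PIM1 + MM with PIM1 and with MM. The filter in all 12 channels gave 1 for WT against MM, 2 for the interaction and 5 for PIM1 + MM against PIM1, where fewer probes were tested. The processed signal gave 8 for PIM1 + WT against PIM1 + MM, 5 for PIM1 + MM against PIM1 and 7 for PIM1 + MM against MM. The array as a fixed block gave 1 for WT against MM and 9 for PIM1 + WT against PIM1 + MM, and as a random block 1 and 10, with 2 for the interaction (BCL2L1 and a BID probe). The 1 for WT against MM was BCL2L1. The gene median gave 3 genes for PIM1 + WT against PIM1 + MM. Fitting only the groups compared, which leaves 4 samples, gave 2 for PIM1 + WT against PIM1 + MM and 0 for PIM1 + MM against PIM1. Without the first array (control 1 and PIM1 1), PIM1 + MM against MM had 7. Leaving out each sample in turn gave 2 to 3 for PIM1 + WT against PIM1 + MM, 7 to 9 for PIM1 + WT against WT and 2 to 5 for PIM1 + MM against PIM1 (5 without PIM1 replicate 2). The cause of these shifts was not tested beyond the number of probes and samples named.

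The replicate number, which is also the slide, was added as a block. With this replicate block the counts were 8, 0, 5, 1, 0, 11, 3 and 5 in the order PIM1 against control, WT against MM, PIM1 + WT against PIM1 + MM, interaction, WT against control, PIM1 + WT against WT, PIM1 + MM against PIM1 and against MM. All 31 results still passed and 2 of 89 others passed as well. The labels pair no samples.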
